A study of Mus musculus with 6 samples.

Results

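Protocadherins are cadherin-related adhesion proteins of neurons. They are described here as the 67 rows of the deposited gene table, out of 14250, whose symbol starts with Pcdh. Of these, 56 are clustered, with 13 in the alpha, 21 in the beta and 22 in the gamma cluster, and 11 are unclustered genes at separate places in the genome. GENCODE M21 lists 70 protocadherin genes, and Pcdha8, Pcdhb1 and Pcdh12 were not analysed here. Tissue was the anterior cingulate cortex (ACC), part of the medial frontal cortex, of C57BL/6 mice at postnatal day 45. One group had received LPS (lipopolysaccharide, a bacterial endotoxin) at 50 µg per kg into the peritoneum on postnatal day 14, and the other pyrogen-free saline on the same day. Each group held 3 mice with 1 library of polyadenylated RNA each. All 6 mice were anaesthetised with isoflurane and pentobarbital and perfused with cold buffer before the ACC was cut out of slices by hand.

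The clustered genes work as a barcode. Each neuron transcribes a few of the many variable first exons of a cluster, chosen by CTCF and cohesin looping between promoters and a distant enhancer. The proteins bind the same isoform on a touching membrane, which lets neurites of 1 cell recognise and avoid each other. In the alpha and gamma clusters each variable exon is spliced to the same set of constant exons, whereas beta genes are single exons with their own ends. The C-type isoforms, at the downstream end of the alpha and gamma clusters, are used more evenly across cells. The unclustered genes, mostly of the delta family, mark particular neuron types and layers and signal through cytoplasmic tails of their own.

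All 3 clusters lie on the plus strand of chromosome 18 in GRCm38. Alpha spans 36930184 to 37187661, beta 37264938 to 37524479 and gamma 37661793 to 37841873. In GENCODE M21, 2860 exon bases belong to every alpha gene and 2116 to every gamma gene, and none to every beta gene. The exons shared with another protocadherin make up a median of 53.4% of an alpha row's exon bases and 44.7% of a gamma row's, against 0% for beta and unclustered rows. Pcdhb21 and Pcdhb22 are an exception among beta genes, with 455 exon bases in common. By sequence, a median of 44.9% of all stretches of 50 bases in a gamma transcript recur in another protocadherin gene, against 59.9% for alpha, 4.82% for beta and 0% for unclustered genes. Reads from shared exons can be given to any of several genes, so levels of single alpha and gamma rows are uncertain. GENCODE M21 also holds 3 same-strand genes that run from the alpha into the gamma cluster (Gm42416, Gm37013 and Gm37388), which were not analysed here.

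The deposited FPKM values (fragments per kilobase of transcript, scaled by library size) give the length behind each row. Counts divided by FPKM and by the total of table counts in the library imply a length in bases, which would be off by a constant factor if the authors scaled by another total. This implied length was a median of 1.09 times the longest annotated transcript in the alpha, beta and gamma rows alike. In unclustered rows the median was 0.932, with values from 0.523 in Pcdh7 to 1.09 in Pcdh18. Against the exon bases that a row shares with no other protocadherin, the median was 2.35 for alpha, 1.97 for gamma and 1.09 for beta rows. Some rows departed from these medians. Pcdhga1 had 0.798 times its transcript and 1.15 times its own exons, and Pcdhgc5 0.931 and 0.801 times. The Pcdha11 row ENSMUSG00000102206 had 0.947 and 1.09 times. Pcdhb8 and Pcdha6 had 0.935 and 0.974 times their transcripts.

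Libraries held 36168687 to 41270737 counts. Excitatory cortex markers summed to 1908 to 2148 CPM (counts scaled to a common library size) in saline and 2059 to 2139 CPM after LPS. Striatal markers summed to 129 to 133 and 122 to 132 CPM. Some other marker sums varied more between libraries within a group. Meningeal markers summed to 35.8 to 71.0 CPM in saline and 59.7 to 88.1 CPM after LPS, with overlapping groups. Of 8 interneuron markers, 4 were higher in every LPS library, as were 6.84% of all rows. EdgeR called 0 of the 8 (smallest adjusted p = 0.307), where 0.0982% of all rows were called higher and 0.189% lower. These markers summed to 643 to 706 CPM after saline and 695 to 764 CPM after LPS. Of 6 immediate early genes, 5 were lower in every LPS library, as were 6.84% of all rows. EdgeR called 2 of the 6 lower, against 0.189% of all rows, Nr4a1 (adjusted p = 0.00788) and Dusp1 (adjusted p = 0.0192). The 6 genes summed to 1648 to 2365 CPM after saline and 907 to 1285 CPM after LPS. Unannotated rows took 2.51% to 2.93% of counts in saline and 1.61% to 2.03% in LPS libraries. The part of these differences in the protocadherin values was not tested. In bulk tissue, fewer cells of a type and less RNA per cell cannot be told apart.

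No protocadherin differed between LPS and saline mice past the threshold in edgeR (adjusted p under 0.05 over all 14250 rows). Calls numbered 0 higher and 0 lower of 67, where 0.0982% and 0.189% of all rows were called, and the smallest adjusted p among members was 0.694. At an unadjusted p under 0.05 there was 1 higher and 1 lower member, Pcdhga11 and Pcdhgb4, against 3.63% and 3.54% of all rows. The groups did not overlap in 2 members, Pcdhga9 and Pcdhga11, both higher in LPS, and in 0 lower ones, where all rows gave 6.84% higher and 6.84% lower. The median log2 change was -0.04 over the 67 members and 0.00 over all rows. Limma-voom called 0 members, and DESeq2 called Pcdhgb4 lower (adjusted p = 0.0252).

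**Figure D1:**
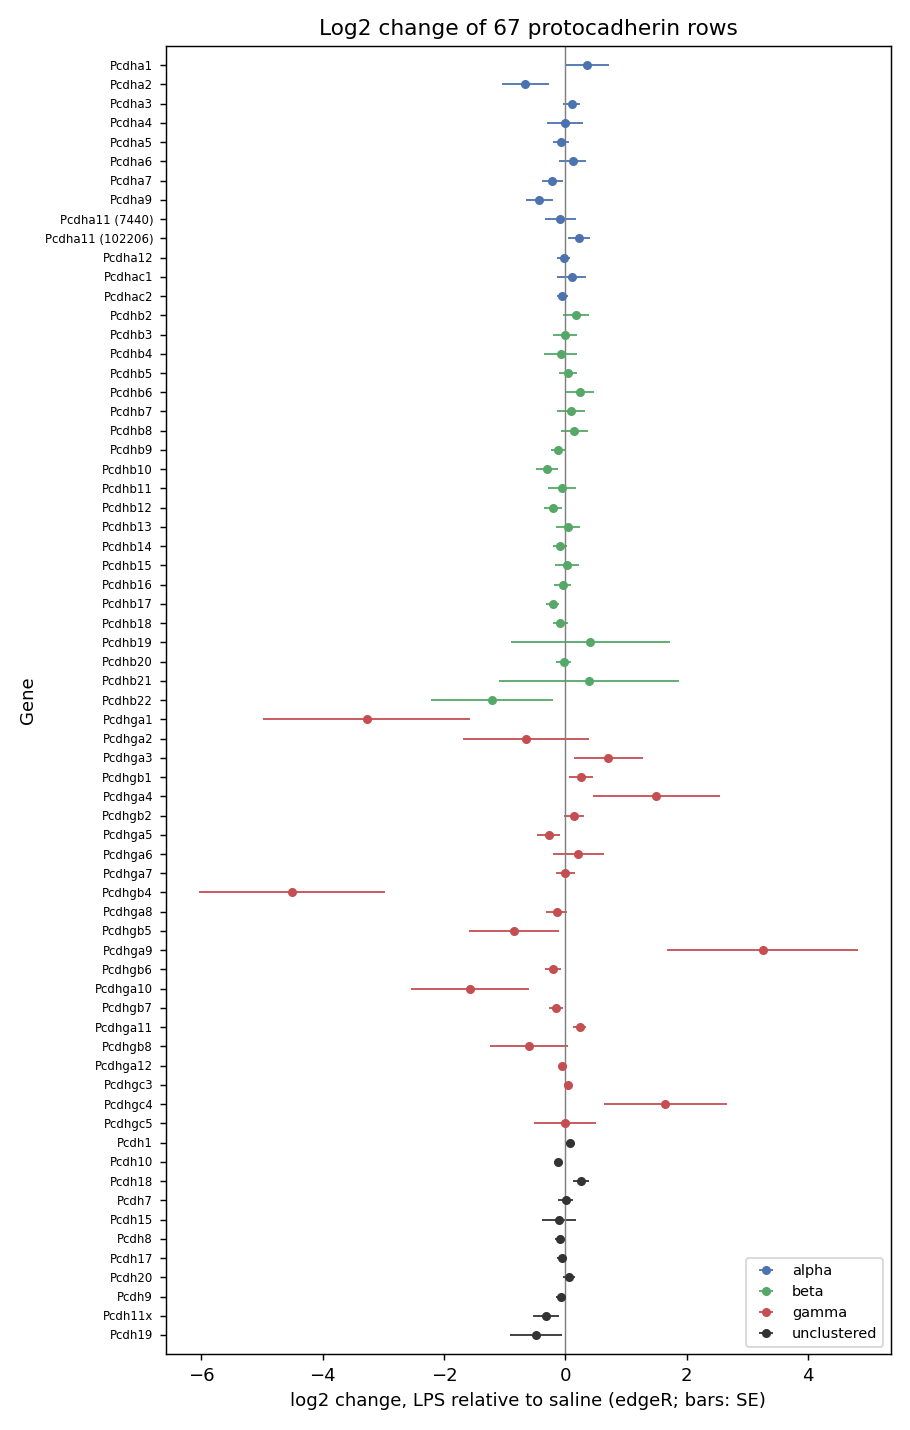
Log2 change of each protocadherin row in LPS relative to saline mice (x axis, edgeR, bars show the SE), with genes on the y axis in genomic order within each cluster. Most rows lie close to 0, while gamma rows such as Pcdhgb4 (-4.51) and Pcdhga9 (3.25) lie far out with wide bars.

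The largest fitted changes of the whole table, in either direction, were nevertheless gamma protocadherins. Pcdhgb4 had the lowest log2 change of all 14250 rows, -4.51 (SE 1.54, edgeR adjusted p = 0.694). Pcdhga9 had the highest, 3.25 (SE 1.57, edgeR adjusted p = 0.762). Pcdhga1 was at rank 3 from the lowest end, at -3.28 (SE 1.71, edgeR adjusted p = 0.782). Each of these values came from 1 or 2 libraries.

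Pcdhgb4 encodes a B-type gamma isoform. Its level was 361, 7.84 and 344 CPM in Saline 1, 2 and 3, and 8.35, 11.2 and 11.8 CPM in LPS 1, 2 and 3. Saline 1 stood at 31.4 times the median of the 6 libraries with Saline 3 close to it, and Saline 2 lay below every LPS library. In raw counts these values were 13776, 314 and 13095 against 350, 454 and 430. Without Saline 2 the log2 change was -5.08 and edgeR called it (adjusted p = 1.0e-04). Saline 2 is the saline library unlike the others, so that call follows from dropping it and is no separate support. Leaving out any other library gave no call.

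Pcdhga9, an A-type isoform, showed the same kind of jump in another mouse. It had 14.9, 10.3 and 16.3 CPM after saline and 17.1, 358 and 18.3 CPM after LPS. Only LPS 2 was high, and without it the log2 change was 0.36 (edgeR adjusted p = 0.832). Pcdhga1, also A-type, had 6.44, 169.6 and 5.65 CPM after saline and 5.03, 6.15 and 7.59 CPM after LPS, so Saline 2 alone was high. Without Saline 2 its log2 change was 0.05.

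Other gamma rows were raised in the same libraries. Pcdhga10 had 64.1 CPM in Saline 2 and 7.91 to 10.9 CPM in the other 5 libraries. Pcdhgb5, the lowest gamma row by mean CPM, had 5.58, 24.0 and 5.34 CPM after saline and 6.37, 7.93 and 5.15 CPM after LPS. Saline 2 therefore carried Pcdhga1, Pcdhga10 and Pcdhgb5 together. LPS 1 carried another set: Pcdhga4 at 94.6 CPM (10.7 to 17.5 elsewhere), Pcdhga3 at 53.6 CPM (16.4 to 18.6 elsewhere) and the C-type row Pcdhgc4 at 100.6 CPM (12.1 to 15.3 elsewhere). Pcdhga2 was at 52.4 to 63.6 CPM in Saline 1, Saline 3 and LPS 2, at 22.7 CPM in LPS 3, and at 8.15 to 9.52 CPM in Saline 2 and LPS 1.

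**Figure D2:**
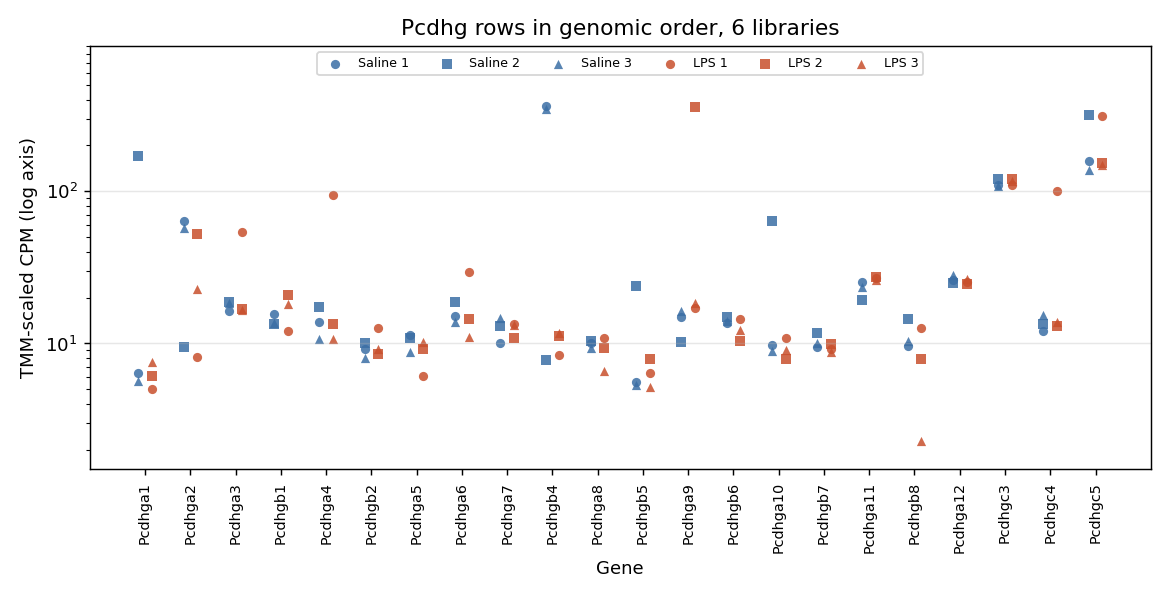
Level of each of the 22 gamma rows in genomic order (x axis) in TMM-scaled CPM on a log axis (y axis), 1 point per library. Single libraries stand far above the rest in 7 rows, such as Pcdhgb4 in Saline 1 and Saline 3 and Pcdhga9 in LPS 2, and LPS 3 stands out upward in none.

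Upward jumps of this size were rare in the rest of the table. The highest library reached at least 4 times the row's median over the 6 libraries in 7 of 22 gamma rows, Pcdhgb4, Pcdhga1, Pcdhga9, Pcdhgc4, Pcdhga4, Pcdhga10 and Pcdhgb5. This occurred in 0.196% of all rows (28 of 14250). It occurred in 0 of the 13 alpha, 0 of the 21 beta and 0 of the 11 unclustered rows. The measure does not register drops or rows that are high in several libraries. It thus leaves out Pcdhb19, at 0 counts in Saline 3, and Pcdhb22 and Pcdhga2. Their highest libraries were 12.3 and 7.79 times their lowest. The high library was Saline 2 in 3 of the 7 rows, LPS 1 in 2, LPS 2 in 1 and Saline 1 in 1, with Saline 3 close to it. Both groups thus contained such libraries.

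The C-type rows differed from each other. Pcdhgc5 had 159, 315 and 138 CPM after saline and 310.3, 152.5 and 148 CPM after LPS. Saline 2 and LPS 1 were high, 1 library in each group, and the group means were 204 ± 96.9 and 204 ± 92.5 CPM (SD, n = 3 each). Pcdhgc3 had 109.8, 120.6 and 108 CPM after saline and 109.9, 120.7 and 117 CPM after LPS, with a log2 change of 0.04 (SE 0.0645). It was among the steadiest gamma rows, at 113 ± 6.75 and 116 ± 5.47 CPM (SD, n = 3 each). Pcdhgc4, the isoform on which survival of many cortical interneurons depends, had 12.1, 13.5 and 15.3 CPM after saline and 100.6, 13.03 and 13.9 CPM after LPS. Its log2 change of 1.64 (SE 1.01, edgeR adjusted p = 0.803) came from LPS 1 and was -0.02 without that library.

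Summed over the cluster, 5 of the 6 libraries were nearly level. The 22 gamma rows summed to 928, 933 and 883 CPM after saline and to 898, 914 and 525 CPM after LPS. The first 5 of these had a mean of 911 ± 20.9 CPM (SD over those 5 libraries, a coefficient of variation of 2.29%). LPS 3 was set apart on these same sums, which lowers that coefficient. Over the same 5 libraries it was 4.83% for the alpha, 9.21% for the beta and 1.42% for the unclustered sum. Pcdhgb4, Pcdhga9 and Pcdhga1 reached 31.4, 21.5 and 26.9 times their medians in libraries among these 5. LPS 3 was at 57.6% of their mean, 386 CPM lower. The group means were 915 ± 27.7 CPM after saline and 779 ± 220.1 CPM after LPS (SD, n = 3 each), a ratio of 0.852, and without LPS 3 the ratio was 0.991.

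A-type and B-type sums were low where C-type sums were high in Saline 2 and LPS 1. The 19 A-type and B-type rows summed to 647, 484 and 621 CPM after saline and 378, 628 and 247 CPM after LPS. The 3 C-type rows summed to 281, 449.6 and 262 CPM after saline and 521, 286 and 278 CPM after LPS. LPS 3 was the lowest library in the first sum and lay between Saline 3 and Saline 1 in the second. Shares of the total moved likewise: Pcdhgb4 held 38.9% of gamma counts in Saline 1 and 39.0% in Saline 3, Pcdhga9 held 39.2% in LPS 2, and each held 0.84% to 3.49% in the libraries where it was not raised.

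In LPS 3, 0 gamma rows reached 2 times their median, against 1 to 4 rows in each of the other 5 libraries. This describes the same values as the jumps above and does not locate the lower sum. Whether reads of LPS 3 were counted for another feature was not tested.

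**Figure D3:**
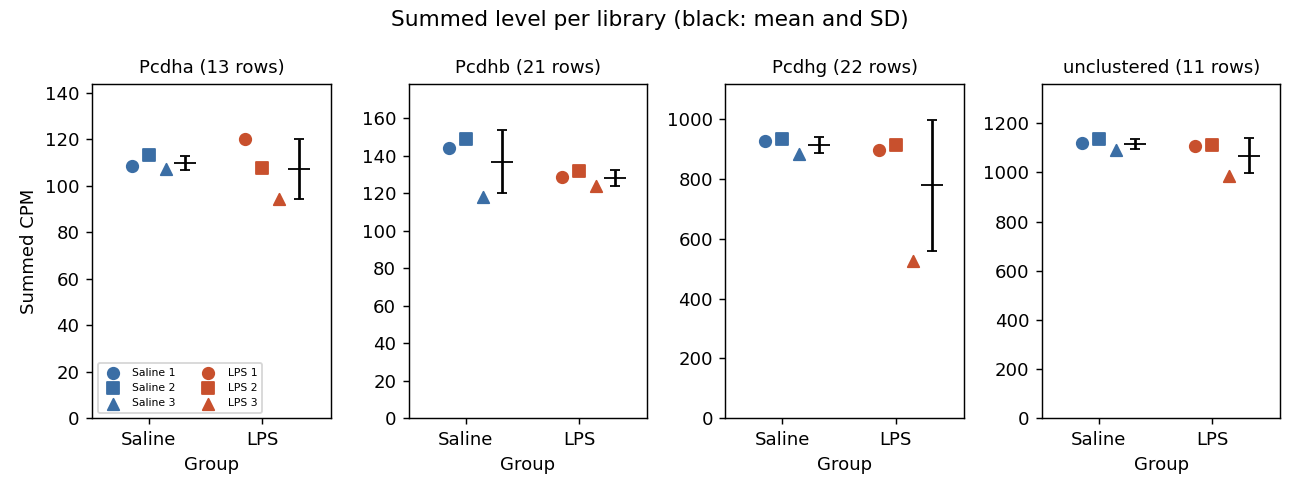
Summed TMM-scaled CPM per library (y axis, from 0) of the alpha, beta, gamma and unclustered rows, by group (x axis), with the group mean and SD in black. The gamma sum lies between 883 and 933 CPM in 5 libraries and at 525 CPM in LPS 3.

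The implied length moved with the jumps of Pcdhgc4 and Pcdhga1, and not with those of Pcdhgb4, Pcdhga9, Pcdhga10, Pcdhgb5 and Pcdhga4. For Pcdhgc4, counts and FPKM gave 3276 bases in LPS 1, the library in which it was high, and 5443 to 5551 bases in the others. For Pcdhga1 they gave 5022 bases in Saline 2, where it was high, and 3652 to 3847 bases elsewhere. Pcdhgb4 and Pcdhga9 kept a steady length, at 5058 to 5155 and 5118 to 5219 bases. So did Pcdhga10 and Pcdhgb5, at 5122 to 5230 and 5058 to 5180 bases. Pcdhga4 had 5138 bases in LPS 1, where it was high, and 4750 to 5220 bases elsewhere. Pcdhgc5 was longest in Saline 2 and LPS 1, where it was high, at 4620 and 4608 bases. In the other libraries it had 4056 to 4524 bases. Length also varied in rows without such a jump. Pcdhb6 had 2936 bases in Saline 2 and 4014 to 4162 bases elsewhere, and Pcdhb8 ranged from 2449 to 3659 bases. The part of the authors' counting in the jumps was not tested.

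Among the steadier gamma rows, Pcdhga11 had the smallest p. It had 25.4, 19.4 and 23.5 CPM after saline and 26.9, 27.5 and 25.9 CPM after LPS. The LPS libraries lay close together above all saline libraries, and the log2 change was 0.23 (SE 0.102, unadjusted p = 0.0460, edgeR adjusted p = 0.696). Without Saline 2, the lowest library, it was 0.13. Pcdhgb8, which GENCODE M21 lists as a polymorphic pseudogene, had 9.69, 14.6 and 10.5 CPM after saline and 12.6, 7.91 and 2.27 CPM after LPS, with LPS 3 the lowest. A further 7 rows, Pcdhga5, Pcdhga7, Pcdhga8, Pcdhgb1, Pcdhgb2, Pcdhgb6 and Pcdhgb7, had log2 changes from -0.28 to 0.26, and Pcdhga6 was at 29.7 CPM in LPS 1 and 11.1 to 18.7 CPM elsewhere. Pcdhga12, the last A-type gene, had 26.4 ± 1.58 CPM after saline and 25.5 ± 1.1 CPM after LPS (SD, n = 3 each).

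The alpha cluster was low and had no row with a library at 4 times its median or more. Single rows still varied, and the highest library of Pcdha2 was 3.10 times its lowest. The 13 alpha rows summed to 108, 113 and 107 CPM after saline and 119.9, 107.6 and 94.2 CPM after LPS. The highest and the lowest sum were thus both LPS libraries, and the ratio of the means was 0.977 (1.04 without LPS 3). Pcdhac2, a C-type gene needed for the even spacing of serotonin axons, carried 35.9% to 36.7% of alpha counts in every library. It had 39.6, 41.7 and 39.0 CPM after saline and 43.1, 39.0 and 33.9 CPM after LPS, a log2 change of -0.05 (SE 0.0905), and was the top alpha row at a mean of 6.12 FPKM. Pcdhac1, the other C-type gene, had 3.56, 2.27 and 4.07 CPM after saline and 3.51, 4.10 and 3.01 CPM after LPS. The 2 groups overlapped in both genes.

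None of the alpha rows passed the test. Log2 changes ran from -0.66 in Pcdha2 (SE 0.390) to 0.36 in Pcdha1 (SE 0.356), the lowest alpha row at 1.27 to 1.73 CPM after saline and 0.986 to 2.74 CPM after LPS. Pcdha9 had the smallest p, with 5.06, 9.59 and 7.07 CPM after saline and 5.20, 6.03 and 4.90 CPM after LPS (log2 -0.43, SE 0.221, edgeR adjusted p = 0.751). Saline 1 lay within the LPS range there. The symbol Pcdha11 stands on 2 rows, ENSMUSG00000102206 with 10.3 ± 1.34 CPM after saline and 12.0 ± 2.65 CPM after LPS, and ENSMUSG00000007440 with 3.36 ± 0.510 and 3.17 ± 1.02 CPM (SD, n = 3 each). GENCODE M21 gives both the same name.

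The beta cluster has no constant exons, so its rows depend less on how shared reads were treated. Its 21 rows summed to 144, 149 and 118 CPM after saline and 129, 132 and 124 CPM after LPS, a ratio of 0.936 with overlapping groups. Pcdhb17 was the highest beta row at a mean of 3.43 FPKM. It had 18.6, 21.2 and 16.5 CPM after saline and 15.8, 17.0 and 15.8 CPM after LPS, so 1 LPS library lay above Saline 3 (log2 -0.21, SE 0.106, edgeR adjusted p = 0.736). Pcdhb10 had 4.03, 4.62 and 4.34 CPM after saline and 3.15, 4.202 and 3.18 CPM after LPS (log2 -0.30, SE 0.174, edgeR adjusted p = 0.774). Pcdhb2 was the lowest by CPM, at 1.91, 1.87 and 1.95 CPM after saline and 1.76, 2.52 and 2.19 CPM after LPS. The beta rows not named here had log2 changes from -0.21 (Pcdhb12) to 0.24 (Pcdhb6).

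At the downstream end of the beta cluster 3 rows varied more widely than the rest. Pcdhb22 had 10.6, 13.4 and 11.1 CPM after saline and 12.2, 1.09 and 1.78 CPM after LPS. LPS 2 and LPS 3 were low and LPS 1 lay among the saline libraries (log2 -1.21, SE 1.01, edgeR adjusted p = 0.840). Leaving out LPS 1 gave -3.03, which edgeR called (adjusted p = 9.6e-04). LPS 1 is the LPS library unlike the others, so that call follows from dropping it and is no separate support. Leaving out any other library gave no call, and limma-voom with all 6 libraries gave -1.97 (adjusted p = 0.544). Pcdhb21, which shares exon bases with it, had 3.46, 0.450 and 2.92 CPM after saline and 0, 4.87 and 4.08 CPM after LPS. It was thus at its highest where Pcdhb22 was low and at its lowest in Saline 2 and LPS 1, where Pcdhb22 was highest.

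Adding the pair did not level the libraries. Pcdhb21 and Pcdhb22 together had 14.04, 13.9 and 13.98 CPM after saline and 12.2, 5.96 and 5.86 CPM after LPS. Each LPS sum lay below each saline sum, and 6.84% of all single rows were also lower in every LPS library. LPS 1, at 12.2 CPM, lay closer to the saline sums than to the other LPS sums. This pair was chosen after its values were seen, and the sum has no test. Pcdhb19 was listed at 0 counts in Saline 3, which allows up to 0.0789 CPM at 3 counts, and at 8.64 to 12.99 CPM in the other 5 libraries. The 0 counts of Pcdhb21 in LPS 1 allow up to 0.0715 CPM. These limits cover counting error only, and the part of read assignment in these 3 rows was not tested.

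**Figure D4:**
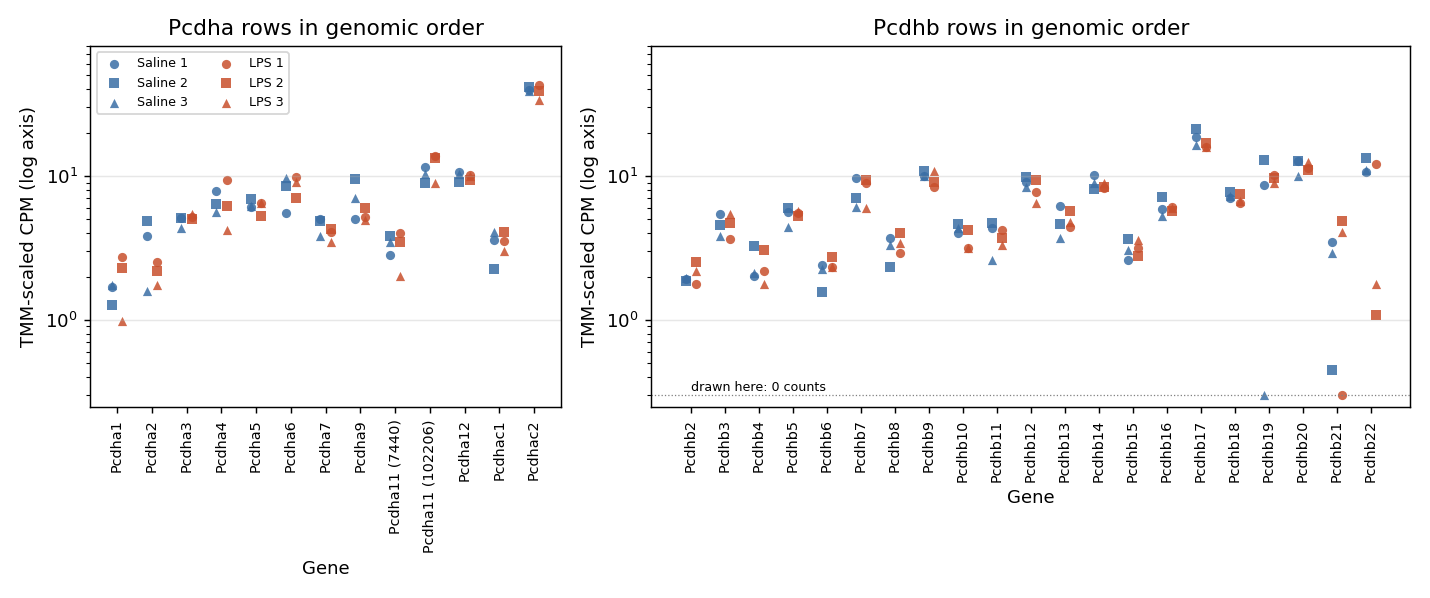
Level of the 13 alpha and 21 beta rows in genomic order (x axes) in TMM-scaled CPM on log axes (y axes), 1 point per library, with 0 counts drawn at the dotted line. Libraries lie close together in most rows, while Pcdhb19, Pcdhb21 and Pcdhb22 at the downstream end of the beta cluster each have libraries far below the others.

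The unclustered genes share no exon bases with other protocadherins and varied least between libraries. The highest library was a median of 1.1002 times the row median, against 1.16 in alpha, 1.19 in beta and 1.57 in gamma rows. Over all rows of the table it was 1.11. Unclustered rows also had the highest median level, 53.0 CPM, against 6.24 in alpha, 5.40 in beta and 21.0 in gamma rows. The part of level or shared exons in this spread was not tested. The 11 unclustered rows summed to 1121, 1134 and 1092 CPM after saline and 1109, 1109.9 and 985 CPM after LPS, a ratio of 0.957 (0.994 without LPS 3). By FPKM, which scales for length, Pcdh1 led at a mean of 55.4, followed by Pcdh10 at 44.8. Then came Pcdh7 at 16.1, Pcdh9 at 13.8, Pcdh8 at 12.5 and Pcdh17 at 11.3. Neighbours in this middle group overlapped between libraries: Pcdh7 ranged from 12.9 to 19.9, Pcdh9 from 12.5 to 15.2, Pcdh8 from 11.5 to 14.1 and Pcdh17 from 9.61 to 11.8. Pcdh19 (4.92), Pcdh20 (4.08), Pcdh15 (2.83), Pcdh11x (1.65) and Pcdh18 (1.55) were lower. Libraries of Pcdh19 and Pcdh20 overlapped, as did those of Pcdh15 (2.16 to 3.24) and Pcdh11x (1.37 to 2.33), and those of Pcdh11x and Pcdh18. The FPKM order depends on the lengths used, and the implied length of Pcdh7 was 0.523 times its transcript. By mean CPM, Pcdh7 (76.6) lay below Pcdh17 (140.8) and Pcdh9 (83.5).

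Pcdh10, on chromosome 3 at 45378398 to 45435623, encodes a delta-2 protein that takes part in activity-driven synapse removal. It had 400.0, 378 and 384 CPM after saline and 378, 364 and 327 CPM after LPS. LPS 1 lay just above Saline 2 and the others below all saline libraries, with a log2 difference of -0.12 (SE 0.0647, edgeR adjusted p = 0.756). Pcdh1, on chromosome 18 at 38185914 to 38212053, is a delta-1 gene found in epithelia and blood vessels as well as in neurons. It had 267, 267 and 226 CPM after saline and 268, 279.9 and 251 CPM after LPS, a log2 change of 0.07 (SE 0.0766).

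Pcdh19 had the largest spread among unclustered genes. This X-linked delta-2 gene, at 133582860 to 133688987, underlies an epilepsy of heterozygous girls in humans. It had 54.2, 55.2 and 55.8 CPM after saline and 58.0, 19.6 and 40.6 CPM after LPS. The saline libraries lay within 2 CPM of each other, LPS 1 was just above them and LPS 2 far below. The log2 difference was -0.48 (SE 0.422, edgeR adjusted p = 0.848) with all libraries and -0.16 when LPS 2 was dropped. FPKM gave the same order, with 5.40 to 5.92 in saline and 6.25, 1.99 and 4.06 in LPS libraries.

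None of the other delta-2 genes passed the test. Pcdh8, an activity-regulated gene that draws N-cadherin off the synaptic membrane, had 54.1, 59.0 and 51.0 CPM after saline and 48.2, 53.6 and 52.0 CPM after LPS (log2 -0.09, SE 0.0742). Pcdh17, which recruits actin regulators to growing axons, had 148, 140.7 and 140.9 CPM after saline and 145, 149.7 and 120.3 CPM after LPS (log2 -0.05, SE 0.0823). LPS 3 was the lowest library in Pcdh17, as in Pcdh10, Pcdh7, Pcdh9 and Pcdh11x and in the unclustered sum. Pcdh18, the lowest unclustered row, had 6.47, 8.34 and 8.73 CPM after saline and 8.47, 9.84 and 9.86 CPM after LPS (log2 0.26, SE 0.139, edgeR adjusted p = 0.757).

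**Figure D5:**
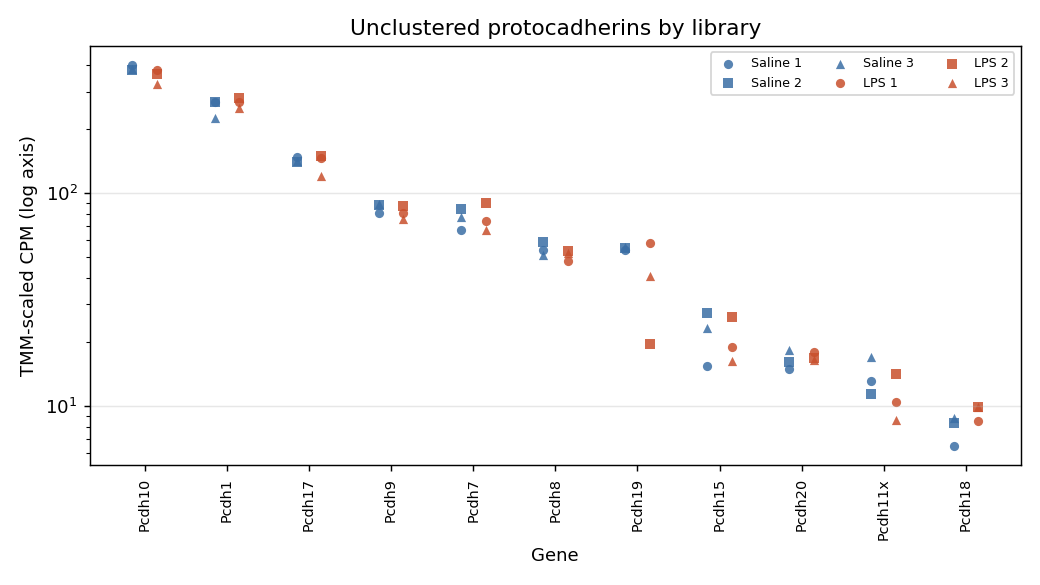
Level of the 11 unclustered protocadherins (x axis, in order of mean level) in TMM-scaled CPM on a log axis (y axis), 1 point per library. Libraries overlap between groups in every gene, and Pcdh19 in LPS 2, at 19.6 CPM, stands apart from 40.6 to 58.0 CPM in the others.

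Among delta-1 and other genes, Pcdh9 had 80.7, 87.5 and 89.0 CPM after saline and 80.8, 87.4 and 75.3 CPM after LPS (log2 -0.08, SE 0.0706). Pcdh7, a receptor with a tail that binds the phosphatase PP1, had 67.4, 84.1 and 77.5 CPM after saline and 73.6, 89.4 and 67.2 CPM after LPS (log2 0.01, SE 0.123). In LPS 2 its highest count went with its lowest FPKM, 12.9, and the implied length was 6789 bases there and 4214 to 4682 bases in the other libraries. Pcdh11x, on the X chromosome, had 13.1, 11.4 and 17.0 CPM after saline and 10.4, 14.1 and 8.63 CPM after LPS (log2 -0.32, SE 0.215). Pcdh15, best known from hair cells of the inner ear, had 15.4 to 27.4 CPM after saline and 16.3 to 26.1 CPM after LPS. Pcdh20 had 14.9, 16.0 and 18.2 CPM after saline and 17.9, 16.8 and 16.4 CPM after LPS. The groups overlapped in all 11 unclustered genes.

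Genes that control protocadherin choice or carry their signals, and other adhesion genes, were counted the same way. Of 95 measured genes in 6 lists, 0 were called by edgeR in either direction, where 0.0982% of all rows were called higher and 0.189% lower. Of the 95, 2 were higher and 0 lower with p below 0.05 before adjustment, against 3.63% and 3.54% of all rows. Among 21 measured regulators of cluster choice the median log2 change was -0.0033, and Ctcf, the looping factor, had 64.6 ± 1.82 CPM after saline and 63.2 ± 1.52 CPM after LPS (SD, n = 3 each). The smallest p there belonged to Wiz (log2 0.15, SE 0.0730), a zinc finger partner of histone methyltransferases, and Tet3 (log2 0.19, SE 0.1002), which oxidises methylated DNA. Both groups overlapped in each of these 3 genes.

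In 18 genes of adhesion signalling the median log2 change was -0.01. Fyn, a kinase bound by alpha protocadherins, had 119.6, 118 and 113 CPM after saline and 121, 129.6 and 132 CPM after LPS, all LPS values being higher (log2 0.13, SE 0.0570, edgeR adjusted p = 0.696). Cyfip2, a subunit of the WAVE actin complex, had a log2 change of -0.12 (SE 0.0707). Rac1, a small GTPase upstream of that complex, had 302 CPM in Saline 1 and 64.8 to 75.2 CPM in the other 5 libraries.

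The last 4 lists had medians from 0.03 to 0.06. In 8 genes of protocadherin cleavage the smallest p belonged to Aph1b (log2 -0.12, SE 0.0963) and Ncstn (log2 0.05, SE 0.0557), subunits of gamma-secretase. Among 24 classical cadherin and catenin genes these were Cdh1, the epithelial cadherin, at 1.48 ± 0.682 CPM after saline and 2.78 ± 0.918 CPM after LPS (SD, n = 3 each, log2 0.90, SE 0.392, edgeR adjusted p = 0.696), and Cdh19 (log2 -0.22, SE 0.120). Among 14 other cadherin superfamily genes they were Dchs2 (log2 0.66, SE 0.302) and Dsg2 (log2 -0.58, SE 0.300), and among 10 adhesion genes outside the superfamily Sdk2 (log2 0.23, SE 0.109) and Ncam1 (log2 0.12, SE 0.0596).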

How the data were processed

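RNA-seq libraries of the ACC were compared between 3 LPS and 3 saline mice, grouped by sample title. The authors deposited 1 table with raw counts and FPKM values per gene, per the file headers. The submitters' processing notes name TopHat2 2.1, DESeq 1.10.1 and GRCm38. What each tool did is not given in the sources used here, nor is the counting program, the strand setting or the handling of shared exons. Positions, exons and transcripts came from GENCODE M21 (GRCm38), in which 13559 of 13562 Ensembl identifiers were found. The other 688 rows are unannotated.

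The main test, over all 14250 rows, was the two-sided quasi-likelihood F test of edgeR 4.0.16 with robust fitting and TMM normalisation (R 4.3.3). The filter filterByExpr removed 0 rows. P-values were adjusted by the Benjamini-Hochberg method, threshold 0.05. CPM uses TMM factors. Sums over rows have no test. Shared stretches were exact matches of 50 bases. Precision is limited by 3 mice a group and by totals of 36168687 to 41270737 counts.

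Alternatives were a replicate block, dropping 1 library at a time, RLE scaling, DESeq2 1.42.0, limma-voom (limma 3.58.1), an unfiltered table, a minimum mean of 50 counts, a looser threshold of 0.1, and limma run on FPKM values (pseudocount 1, log2, minimum mean 0.5). The sum over gamma rows below 2 times their median was added after seeing the data. The count of rows with a library at 4 times the median or more was not among the planned results. The edgeR step was tested on simulated counts.

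Values in every library are given for called rows, up to 6 clustered and 6 unclustered rows with the smallest p, the highest and lowest row per group, and a panel of 13 genes. Of each list, the 2 genes with the smallest p are named, with Ctcf. Pcdhga1, Pcdhga2, Pcdhga3, Pcdhga4, Pcdhga6, Pcdhga10, Pcdhga12, Pcdhgb8, Pcdha2, both Pcdha11 rows, Pcdh15, Pcdhb19, Pcdhb21, Pcdhb22 and Rac1 were added with their values known. Members and lists were chosen with earlier results of these data known.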

Additional observations from a re-analysis of the deposited data

How the results depend on the processing

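With RLE scaling, an unfiltered table, a minimum mean of 50 counts, limma-voom, FPKM in limma or a threshold of 0.1, calls among protocadherins stayed at 0. DESeq2 called 1 member lower, Pcdhgb4 (-4.51), and gave no p for Pcdhga9 and Pcdhga1. Leaving out 1 library gave 0 to 1 lower calls (Pcdhgb4 without Saline 2, Pcdhb22 without LPS 1), 0 to 2 higher and 0 to 3 lower members at an unadjusted p under 0.05. The replicate block gave 0 higher and 0 lower at that p, and FPKM in limma 0 higher and 2 lower. Same-numbered mice showed no clear shared variation (correlations of -0.03, 0.03 and 0.04, against -0.06 to 0.03 for mice of different numbers). With 3 mice a group, these values cannot settle whether the numbers pair the samples. No protocadherin was called with the block (smallest adjusted p = 0.776).

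Signs of uncalled log2 changes turned in some settings, and the cause was not tested beyond the jumps of single libraries given above. Pcdhgc5 was 0.0082 with the replicate block and 0.0057 with limma-voom, Pcdhb21 -1.52 with limma-voom and Pcdh7 -0.26 with FPKM. Leaving out 1 library gave -0.14 to 0.033 for Pcdhac2, -0.44 to 0.45 for Pcdhgc5, -1.19 to 0.25 for Pcdhgb5, -0.018 to 2.07 for Pcdhgc4, -0.0021 to 0.11 for Pcdh1, -0.11 to 0.044 for Pcdh17, -0.11 to 0.28 for Pcdhac1, -0.011 to 0.14 for Pcdh20, -0.12 to 0.095 for Pcdh7, -3.82 to 0.048 for Pcdhga1, -0.22 to 1.94 for Pcdhga4, -0.083 to 0.99 for Pcdhga3, -0.17 to 1.15 for Pcdhb19 and -0.17 to 0.98 for Pcdhb21. The LPS to saline ratio of the gamma sum ran from 0.778 to 0.991 without 1 library, was 0.826 within replicate numbers and 0.958 over the 13 rows below 2 times their median, which were chosen on the same values.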
